A study of Mus musculus with 13 samples.

Results

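The genes described here are 38 interferon-stimulated and nucleic acid-sensing genes, out of 47937 genes in the count table of DN3 and DN4 thymocytes with and without floxed *Opa1*. They were taken from a list of gene symbols, and all 38 were found once each in the table by their Ensembl identifier. By role they comprised 12 sensors and adaptors, 4 transcription factors, 10 antiviral effectors, 6 modifiers or modifying enzymes and 6 other induced genes. The question put to them was whether loss of OPA1, a dynamin-like protein of the mitochondrial inner membrane, leaves the trace of nucleic acid sensing in the RNA of developing T cells.

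The mice were 6 weeks old and on the C57BL/6 background. The Wt group was WT;Lck-Cre+, so that the controls carried Cre recombinase too, and the KO-labelled group was Opa1fl/fl;Lck-Cre+, in which Cre driven by the *Lck* promoter acts in the T cell lineage only. Libraries came from freshly sorted cells of 7 untreated mice. Both stages were sequenced from KO45, KO49, KO51, WT05, WT46 and WT48, and DN4 alone from WT40, which made 3 KO-labelled and 3 Wt DN3 libraries and 3 KO-labelled and 4 Wt DN4 libraries. DN3 and DN4 cells are CD4-CD8- thymocytes before and after β-selection, the checkpoint that requires a functional T cell receptor β chain.

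Cells detect foreign or misplaced nucleic acid through a small set of receptors. RIG-I (*Ddx58*) and MDA5 (*Ifih1*) bind double-stranded RNA and signal through MAVS, which sits on the outer mitochondrial membrane, while cGAS binds DNA in the cytosol, including mtDNA that has left the organelle, and signals through STING (*Tmem173*). Both routes lead to type I interferon, whose receptor activates transcription factors such as STAT2 and IRF9 and so a broad set of interferon-stimulated genes that carry an interferon-stimulated response element (ISRE) near their start.

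Promoters of 4 members are shown because they cover the patterns that follow, a gene that rose and has ISRE matches (*Ifit3*), a gene that did not pass and has them (*Isg15*), a gene with a match that was lower in DN4 (*Ifih1*) and the gene with the largest change, which has none (*Samhd1*). The sequences are from RefSeq on GRCm38.p6, 250 bases before to 50 after the annotated start, read 5′ to 3′ on the strand of the gene, with capitals for matches to the ISRE, searched on both strands as GAAA, any 2 bases and a second GAAA. *Ifit3* lies at chr19:34583279-34583578 (plus strand), *Isg15* at chr4:156200769-156201068, *Ifih1* at chr2:62646206-62646505 and *Samhd1* at chr2:157135047-157135346 (minus strand for the last 3).
Ifit3: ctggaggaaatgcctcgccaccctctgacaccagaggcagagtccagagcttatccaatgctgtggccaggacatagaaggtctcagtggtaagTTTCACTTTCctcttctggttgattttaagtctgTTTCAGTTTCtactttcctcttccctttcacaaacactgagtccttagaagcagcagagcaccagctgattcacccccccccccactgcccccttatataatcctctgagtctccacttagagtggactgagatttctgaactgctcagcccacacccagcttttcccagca
Isg15: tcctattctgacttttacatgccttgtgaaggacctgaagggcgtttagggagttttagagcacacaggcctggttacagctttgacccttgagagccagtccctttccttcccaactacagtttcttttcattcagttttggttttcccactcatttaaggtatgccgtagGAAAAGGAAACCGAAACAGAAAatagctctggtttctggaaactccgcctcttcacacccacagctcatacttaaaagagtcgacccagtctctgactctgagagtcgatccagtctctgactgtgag
Ifih1: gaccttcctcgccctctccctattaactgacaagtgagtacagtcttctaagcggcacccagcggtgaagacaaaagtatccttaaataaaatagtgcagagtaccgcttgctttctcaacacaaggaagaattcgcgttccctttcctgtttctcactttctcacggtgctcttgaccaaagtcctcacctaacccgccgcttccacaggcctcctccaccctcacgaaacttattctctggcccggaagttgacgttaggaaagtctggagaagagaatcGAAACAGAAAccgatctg
Samhd1: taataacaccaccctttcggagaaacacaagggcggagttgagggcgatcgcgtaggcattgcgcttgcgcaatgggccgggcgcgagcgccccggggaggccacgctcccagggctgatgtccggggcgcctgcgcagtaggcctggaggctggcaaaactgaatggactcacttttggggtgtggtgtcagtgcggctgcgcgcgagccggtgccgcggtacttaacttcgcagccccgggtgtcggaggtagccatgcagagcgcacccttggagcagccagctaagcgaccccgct
The matches of *Ifit3* began 156 and 122 bases before the start, the 3 overlapping matches of *Isg15* 78, 72 and 66 bases before it, and the match of *Ifih1* 32 bases after it. RefSeq promoters were found for 26 of the 38 members. An ISRE match was present in 11 of these 26 (42.3%), against 3.99% of 27025 genes with a promoter of the same 300 bases. TTCNNNGAA, the core of the STAT-binding GAS element, was present in 8 of the 26 (30.8%) against 9.55% of all. These letters are a description of the windows and do not show binding.

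Libraries held 5926848 to 14148661 counts on genes (median 10023044), and values below are CPM on TMM-scaled library sizes. The DN3 library of WT05 stood apart, with 42.5% of its counts on its 10 most counted genes against 3.61% to 5.2% in the others and a TMM factor of 0.578 against 0.995 to 1.10. Genotype and sex were not balanced, since *Xist* had 0 to 2 counts in WT40 and WT46 and 10672 to 20604 in the remaining 5, which include every KO-labelled mouse. *Opa1* did not separate the genotypes, at 88.6 to 93.8 CPM in KO-labelled and 91.1 to 112 CPM in Wt DN3 libraries and 77.0 to 87.9 against 85.1 to 93.8 CPM in DN4 (adjusted p = 1 and 0.945, edgeR's quasi-likelihood test), and counts over the whole gene cannot show loss of the floxed part. The sorted populations carried their markers: *Il2ra*, which encodes the DN3 marker CD25, was 727 to 1337 CPM in DN3 and 9.78 to 24.1 CPM in DN4, and *Ptcra*, the pre-T cell receptor α chain, was present in all 13.

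DN4 libraries also held more RNA of B cells and of later T cells than DN3 libraries, in amounts that differed between mice. Over the list of 8 B-cell markers, all 8 of which reached 1 CPM in DN4, the sum was 945 CPM in KO51, 1121 in WT40, 1299 in WT46, 2335 in KO45, 3140 in WT05, 3649 in KO49 and 5784 in WT48. In DN3 the sum was 285 to 426 CPM and came mostly from *Ighm*, at 262 to 372 CPM. The sum of 7 markers of immature single positive, DP and mature T cells, such as *Cd8a* and *Cd4*, was 103 to 124 CPM in KO-labelled and 61.7 to 105 CPM in Wt DN3 libraries and 1030 to 3147 CPM and 799 to 2025 CPM in DN4. The sum of 9 markers of plasmacytoid dendritic cells, strong producers of type I interferon, was 331 to 498 CPM in KO-labelled and 278 to 517 CPM in Wt DN3 libraries and 569 to 1091 CPM and 779.6 to 1337 CPM in DN4. Of these 9, 6 reached 1 CPM, the member *Bst2* among them. *Ccr9*, which thymocytes express too, was the highest of the 9 in every DN4 library, at 381 to 766 CPM. In DN3 it was 102 to 272 CPM. *Irf8*, which B cells also express, was 7.32 to 14.4 CPM in DN3 and 27.3 to 197 CPM in DN4, while *Siglech* was at 0 in DN3 and at most 0.293 CPM in DN4, and *Klk1* and *Cd300c* were at most 0.0691 and 0.0996 CPM. In KO-labelled libraries the next 3 lists overlapped between the stages or were lower in DN4. In Wt libraries the NK and innate lymphoid sum was higher in DN4 without overlap, and the other lists overlapped. Within DN4 that NK sum lay wholly lower in KO-labelled than in Wt libraries. For 7 NK and innate lymphoid markers, of which 1 reached 1 CPM in DN3 and 7 in DN4, the sum was 235 to 298 CPM in KO-labelled and 226 to 249 CPM in Wt DN3 libraries and 203 to 298.5 CPM and 301 to 399 CPM in DN4. For 9 markers of conventional dendritic cells and macrophages it was 62.8 to 68.1 CPM and 55.01 to 74.4 CPM in DN3 and 62.45 to 111 CPM and 70.8 to 112 CPM in DN4. For γδ T cells, with 6 of 8 markers in the table, it was 1593 to 2082 CPM and 1089 to 1909 CPM in DN3 and 769.7 to 1166 CPM and 966 to 2293 CPM in DN4. The part of these cells in the differences below was not tested. In bulk RNA, fewer cells of a type and less RNA per cell cannot be told apart.

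Every one of the 38 members was expressed enough to be tested in each comparison. Per kilobase of exon, the mean level ran from 0.398 CPM (*Samhd1*) to 114 CPM (*Bst2*) in Wt DN3 and from 1.56 (*Ifi44*) to 169 CPM per kilobase (*Ifi27l2a*) in Wt DN4, with medians of 8.57 and 15.4. The genes were thus transcribed at rest in both stages.

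In DN4, 0 of the 38 members passed an adjusted p of 0.05 for KO-labelled against Wt (edgeR's quasi-likelihood test, Benjamini-Hochberg over 13084 genes), and 0 had an unadjusted p under 0.05. The share called among all genes was 0.0535%. DESeq2's Wald test and limma-voom called 0 members as well. With the B-cell marker level as a covariate 0 members passed and 3 had an unadjusted p under 0.05, *Ly6a* with a log2 fold change of 0.58 ± 0.168 (0.17 without the covariate, adjusted p = 0.323 with it in edgeR), *Tmem173* with -0.22 ± 0.0951 and *Stat2* with 0.24 ± 0.104. Fitted log2 fold changes ran from -0.32 to 0.31 with a median of 0.04, 25 positive and 13 negative, beside a median of 0.00226 over all genes (50.5% positive). The sign of this median turned with single libraries, from -0.24 without KO49 to 0.34 without KO51 and 0.29 without WT48. The standard errors of the members, 0.130 to 0.808 with a median of 0.346, were larger than the median of 0.172 over all genes.

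In DN3, too, 0 of 38 members passed, 0 had an unadjusted p under 0.05, and 0.0% of 12105 genes were called by the same test. DESeq2 and limma-voom called 0 members. Here 33 fold changes were positive and 5 negative, with a median of 0.23 on the log2 scale (all genes -0.0053, 48.9% positive) and a range of -0.10 to 0.81. The size of this median rested on WT05 and on KO51 and WT48: it was 0.06 without the DN3 library of WT05, 0.57 without that of KO51 and 0.66 without that of WT48. In neither stage did the KO-labelled and Wt libraries of any member separate without overlap, whereas KO-labelled libraries lay wholly above Wt in 3.1% of all genes in DN3 and 2.74% in DN4 and wholly below in 3.34% and 4.34%.

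**Figure D1:**
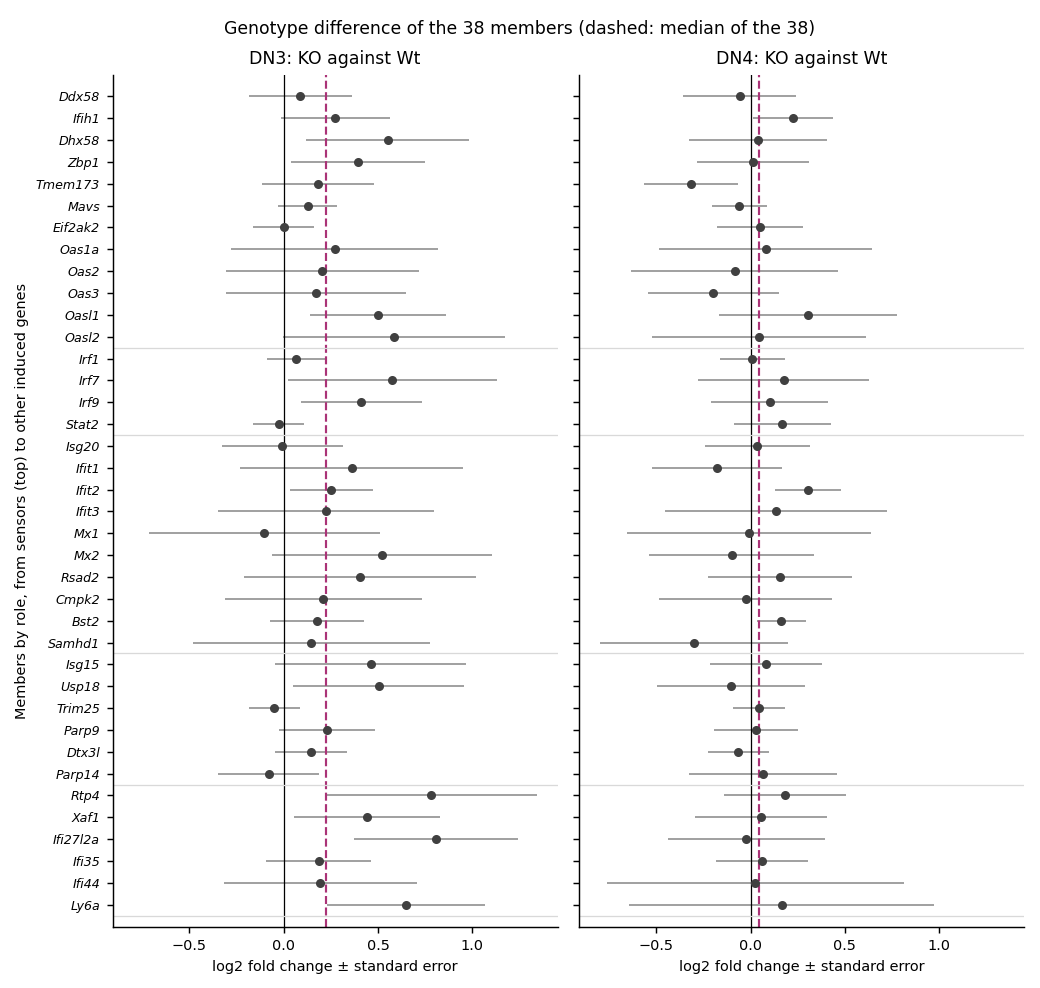
Fitted log2 fold change (x axis) of KO-labelled against Wt libraries for each of the 38 members (y axis, by role), in DN3 on the left and DN4 on the right, with the standard error as bars and the median of the 38 as a dashed line. The DN4 values centre on 0.04 and the DN3 values on 0.23, and 0 members passed an adjusted p of 0.05 in either stage.

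Among sensors of RNA, *Ddx58* was 120.3, 140.1 and 64.2 CPM in DN4 from KO45, KO49 and KO51, and 103, 94.3, 90.5 and 174 CPM from WT05, WT40, WT46 and WT48, the order kept below. In DN3 it was 84.9, 68.0 and 45.02 CPM against 41.3, 66.5 and 76.2 CPM, with WT40 absent from this stage. The groups overlapped in both stages, with log2 fold changes of -0.06 ± 0.300 (standard error) in DN4 and 0.09 ± 0.275 in DN3. *Ifih1* was 27.5, 32.4 and 19.8 CPM in KO-labelled and 20.1, 21.6, 20.2 and 31.4 CPM in Wt DN4 libraries, and 51.6, 50.6 and 26.5 against 32.2, 27.4 and 46.2 CPM in DN3. *Dhx58*, which encodes LGP2, a regulator of the other RIG-I-like receptors, was 43.2, 50.6 and 18.7 CPM against 26.9, 32.1, 31.6 and 59.4 CPM in DN4 and 54.6, 44.05 and 19.9 against 11.7, 31.4 and 35.35 CPM in DN3. In all 3 receptors KO51 was the lowest KO-labelled library and WT48 the highest Wt library of DN4.

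For the arms that bear on mtDNA and on mitochondrial signalling, the values of the genotypes also overlapped. *Tmem173* (STING) was 67.8, 80.5 and 51.2 CPM in KO-labelled and 87.3, 66.3, 61.3 and 125 CPM in Wt DN4 libraries, a log2 fold change of -0.32 ± 0.251 (adjusted p = 0.915, edgeR's quasi-likelihood test). In DN3 it was 60.6, 37.0 and 39.3 CPM against 22.8, 51.7 and 44.0 CPM. *Mavs* varied little, at 32.6, 38.5 and 32.5 CPM against 42.6, 31.6, 30.9 and 42.4 CPM in DN4 and 38.3, 37.5 and 37.96 against 29.0, 33.0 and 41.1 CPM in DN3. *Zbp1*, a sensor of Z-form nucleic acid that is itself interferon-induced, was 113, 112 and 53.5 CPM against 68.8, 88.4, 84.2 and 136 CPM in DN4, with a log2 fold change of 0.01 ± 0.299.

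Transcription factors of the pathway gave the same picture. *Irf7*, the factor that amplifies interferon transcription, was 131, 147 and 44.9 CPM in KO-labelled and 67.2, 81.0, 68.5 and 175 CPM in Wt DN4 libraries, and 66.3, 51.8 and 18.9 against 9.66, 28.9 and 50.4 CPM in DN3. The spread within each group, a SD of 54.9 CPM on a mean of 108 and of 51.9 on 98.0 CPM in DN4, was far larger than the difference between them. *Irf9* was 136, 128 and 63.8 CPM against 95.4, 81.0, 83.2 and 159 CPM in DN4 and 118, 78.9 and 54.1 against 40.4, 61.6 and 84.5 CPM in DN3. *Stat2*, its partner in the complex that binds the ISRE, varied little in DN3, at 70.8, 63.1 and 62.8 against 74.6, 63.3 and 62.2 CPM, and more in DN4, at 110.5, 128 and 74.1 against 89.5, 72.9, 76.9 and 142 CPM. *Irf1* was 152, 189 and 123 CPM against 154, 131, 144 and 199 CPM in DN4, with a log2 fold change of 0.01 ± 0.173, and 139.7, 107 and 107 against 100.4, 122 and 114.5 CPM in DN3.

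The smallest unadjusted p of any member in DN4 belonged to *Ifit2*, which encodes a protein that binds viral RNA. It was 64.2, 83.5 and 51.9 CPM in KO-labelled and 45.5, 59.3, 51.03 and 64.5 CPM in Wt libraries, with a log2 fold change of 0.31 ± 0.174 (adjusted p = 0.887, edgeR), and in DN3 39.75, 57.2 and 41.4 against 42.7, 28.3 and 44.9 CPM. *Bst2*, which encodes tetherin, came next after *Tmem173*, at 62.4, 80.6 and 69.0 against 54.0, 61.9, 70.5 and 71.8 CPM and a log2 fold change of 0.16 ± 0.130. *Isg15*, which encodes a ubiquitin-like modifier, was 33.0, 47.4 and 19.1 CPM against 24.8, 27.2, 33.2 and 43.1 CPM, a log2 fold change of 0.08 ± 0.297.

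In DN3 the smallest p belonged to *Ifi27l2a*, a small membrane protein gene that responds strongly to interferon. Its level was 11.1, 15.4 and 6.67 CPM in KO-labelled and 3.22, 5.13 and 9.80 CPM in Wt libraries, with a log2 fold change of 0.81 ± 0.434 (adjusted p = 1, edgeR). *Ly6a*, which encodes the surface antigen Sca-1, was 33.4, 54.96 and 30.6 CPM against 9.36, 24.9 and 38.8 CPM, a log2 fold change of 0.65 ± 0.419, and in DN4 83.4, 169.6 and 27.5 against 68.2, 30.7, 24.4 and 219.8 CPM. *Oasl1*, a member of the oligoadenylate synthetase family, was 21.3, 25.9 and 12.6 CPM against 8.19, 12.3 and 20.5 CPM, a log2 fold change of 0.50 ± 0.360, and in DN4 34.6, 47.6 and 16.1 against 17.99, 18.4, 19.1 and 53.9 CPM. In all 3 the DN3 library of WT05 was the lowest of the 6 in that stage and the ranges of the genotypes overlapped. *Ly6a* shares 19.0% of its 50-base stretches with *Ly6c1* and so is less certain.

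These genes varied widely between mice of one genotype. The median coefficient of variation of the 38 members was 37.9% in KO-labelled DN3, 43.5% in Wt DN3, 43.5% in KO-labelled DN4 and 34.6% in Wt DN4 libraries, while over all genes it was 14.9%, 19.6%, 15.4% and 14.9%. The members moved together. KO51 was the lowest of the 3 KO-labelled libraries for 34 of 38 members in DN3 and for 36 in DN4, against 29.0% and 37.8% of all genes. WT48 was the highest Wt library for 32 members in DN3 and 37 in DN4, against 29.8% and 34.9% of all genes, and KO49 was the highest KO-labelled library for 35 members in DN4 (30.8% of all genes).

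The same mice were high or low in both stages. The median deviation of the members from their stage mean, on the log2 scale, in DN3 was 0.48 for KO45, 0.57 for KO49, -0.48 for KO51, -0.85 for WT05, -0.11 for WT46 and 0.36 for WT48, where the median of all genes stayed between -0.0287 and 0.0032. In DN4 it was 0.13 for KO45, 0.52 for KO49, -0.74 for KO51, -0.28 for WT05, -0.15 for WT40, -0.19 for WT46 and 0.69 for WT48. Within DN3 the B-cell marker sum was 381 CPM in KO51, 335 CPM in KO45 and 334 CPM in KO49. Of these sums 359, 294 and 300 CPM were *Ighm*. Each genotype held at least 1 mouse well above and 1 well below the stage mean.

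**Figure D2:**
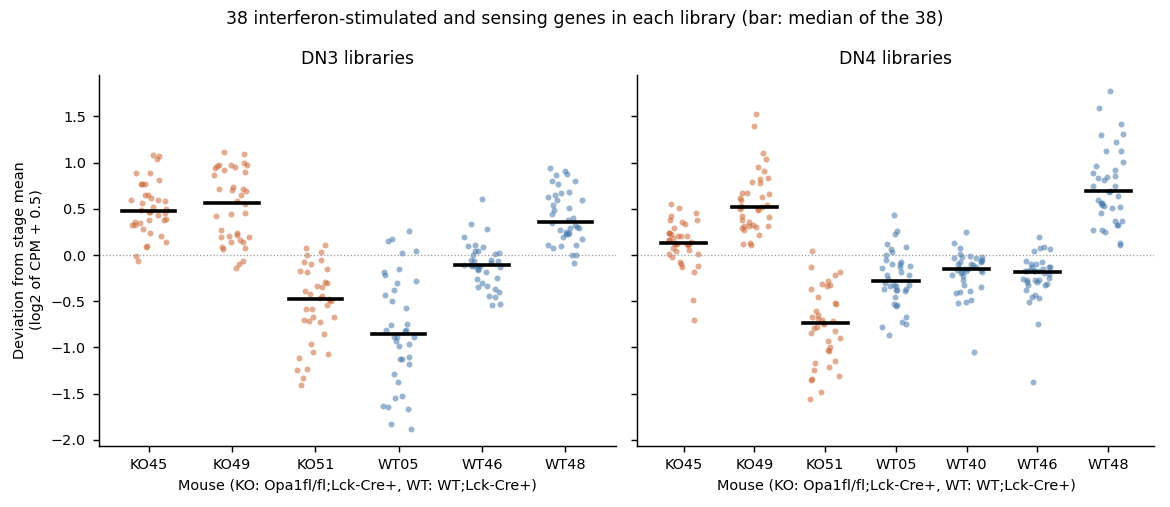
Each point is 1 of the 38 members, placed by the deviation of its log2(CPM + 0.5) from the mean of its stage (y axis), for every library (x axis, by mouse), with the median of the 38 as a black bar. KO51 lies low and KO49 and WT48 lie high in both DN3 and DN4, and the genotypes overlap.

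Between the stages, 8 of 38 members changed in Wt mice (21.1%), 7 higher and 1 lower in DN4, where 22.9% of 12691 genes were called by edgeR's quasi-likelihood test at an adjusted p under 0.05. In KO-labelled mice 4 changed, 3 higher and 1 lower, against 18.6% of 12580 genes. By direction, 13.4% of genes were called higher and 9.43% lower in Wt mice, and 11.2% and 7.34% in KO-labelled mice. The share of members called was under that of all genes in both, although the share called higher in Wt mice, 18.4%, was above the 13.4% of all genes. Single libraries weighed on these counts, which were 3 in Wt mice without the DN3 library of WT46 and 5 without the DN4 library of WT05, and 12 in KO-labelled mice without the DN4 library of KO51. All DN4 libraries lay above all DN3 libraries for 14 members in Wt mice (all genes 20%) and 5 in KO-labelled mice (22%), and below them for 1 (15.0%) and 2 (16.7%). The spread between mice enters those fits, and a fit with the mouse as block compares the stages inside each animal, at the cost of WT40. In it 19 members changed in Wt mice (all genes 18.7%), 17 higher (12.1%) and 2 lower (6.53%), and 22 in KO-labelled mice (57.9%, all genes 35.8%), 17 higher (18.9%) and 5 lower (16.9%). The median log2 fold change of the 38 was 0.62 in Wt and 0.37 in KO-labelled mice without the block, and 0.81 and 0.34 with it, beside -0.03 and -0.02 over all genes.

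With the block, 16 members changed in both genotypes, which is 84.2% of the Wt and 72.7% of the KO-labelled calls. Higher in DN4 in both were *Ddx58*, *Zbp1*, *Tmem173*, *Oas2*, *Oas3*, *Oasl1*, *Irf7*, *Irf9*, *Ifit1*, *Ifit3*, *Mx1*, *Cmpk2*, *Samhd1* and *Ifi27l2a*, and lower in both were *Ifih1* and *Bst2*. *Mx2*, *Usp18* and *Xaf1* passed in Wt mice, *Stat2*, *Ifit2* and *Ly6a* (higher) and *Dtx3l*, *Ifi44* and *Oasl2* (lower) in KO-labelled mice, and 13 members passed in neither. In all 6 mice with both libraries, 23 members were higher in DN4 (21.9% of all genes) and 4 were lower (17.6% of all genes).

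**Figure D3:**
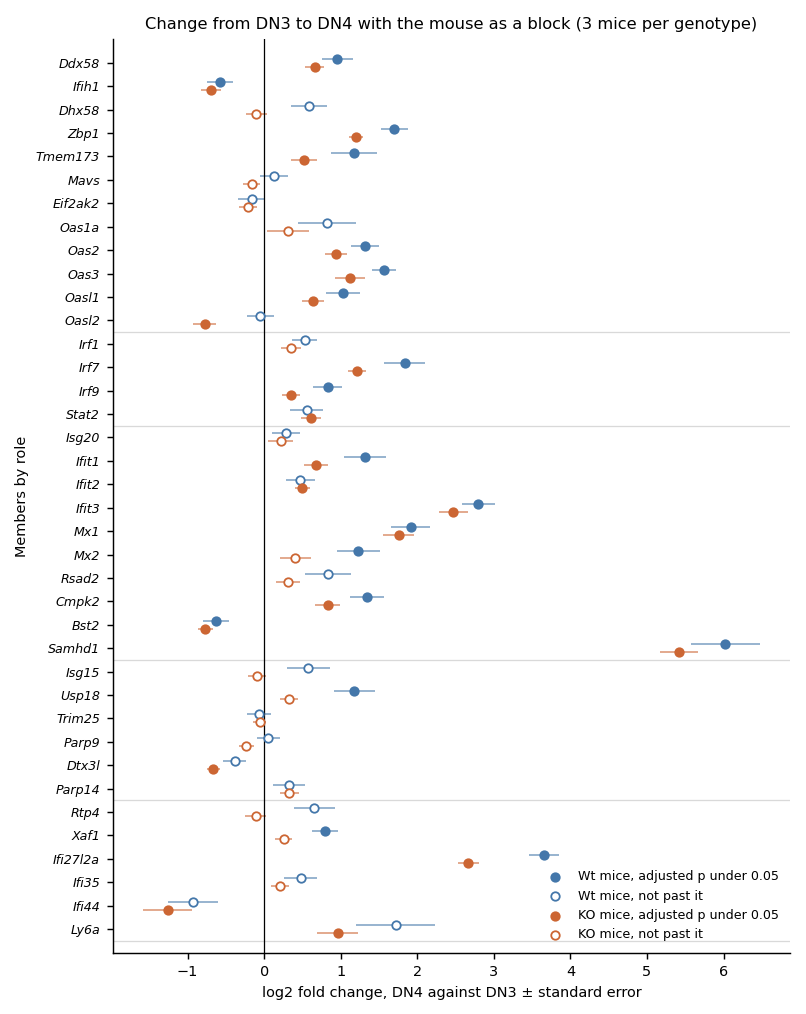
Fitted log2 fold change of DN4 against DN3 (x axis) with its standard error for the 38 members (y axis, by role) in Wt (blue) and KO-labelled mice (orange), with the mouse as a block and filled points past an adjusted p of 0.05. *Samhd1*, *Ifi27l2a* and *Ifit3* lie farthest to the right in both genotypes, and *Ifih1* and *Bst2* are filled below 0 in both.

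*Samhd1* encodes a dNTP triphosphohydrolase that restricts viruses by depleting nucleotides, and lies on chromosome 2 of GRCm38 from 157097533 to 157135265. It had the largest change. Its level was 7.50, 3.86 and 1.37 CPM against 1.46, 5.40 and 4.07 CPM (KO-labelled against Wt, same mouse order) in DN3, and 206, 303 and 77.8 CPM against 267, 138, 152 and 429.6 CPM in DN4. Every DN4 library lay above every DN3 library, with log2 fold changes of 5.90 ± 0.570 in Wt mice (adjusted p = 0.000319, edgeR) and 5.45 ± 0.673 in KO-labelled mice (adjusted p = 0.00168).

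The level of *Samhd1* in DN4 moved with the B-cell markers. Across the 7 DN4 libraries its order, KO51, WT40, WT46, KO45, WT05, KO49 and WT48, was that of the B-cell marker sum, with Pearson's r of 0.968 (p = 0.000794, two-sided exact permutation test over 5040 pairings, 1 of 38 such relations computed) and Spearman's rho of 1 (exact p = 0.000397). Without the libraries farthest from the median, WT48 and KO51, r was 0.994. *Irf1* had the same order (rho of 1), and the highest r, 0.971, was that of *Trim25*, a ubiquitin ligase of RIG-I signalling that did not pass between the stages in either genotype. In the DN4 library with the lowest B-cell sum, KO51, *Samhd1* was still 77.8 CPM against 1.37 CPM in its DN3 library. Within this mouse the log2 change from DN3 to DN4 was 5.39 for *Samhd1* and -0.67 for *Bst2*, and the median change of the 38 members was 0.31.

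*Ifi27l2a*, on chromosome 12 from 103442167 to 103443680, came next. Its DN3 values are given above, and in DN4 it was 81.2, 113 and 31.7 CPM in KO-labelled and 54.5, 77.0, 57.7 and 124 CPM in Wt libraries. The stages did not overlap in either genotype, and the log2 fold changes were 3.59 ± 0.433 in Wt (adjusted p = 0.000915, edgeR) and 2.75 ± 0.478 in KO-labelled mice (adjusted p = 0.00679). *Ifit3*, on chromosome 19 from 34583531 to 34588731 and a partner of IFIT1, was 6.84, 10.2 and 3.14 CPM in KO-labelled and 2.05, 4.34 and 10.02 CPM in Wt DN3 libraries. In DN4 it was 48.5, 62.6 and 10.9 against 19.0, 34.7, 26.3 and 72.4 CPM, above every DN3 library of its genotype, with log2 fold changes of 2.69 ± 0.597 (adjusted p = 0.0134) and 2.59 ± 0.643 (adjusted p = 0.0275). *Ifit3* shares 51.2% of its 50-base stretches with *Ifit3b*, so that its counts may be split between the copies.

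*Zbp1*, on chromosome 2 from 173206612 to 173218923, was 48.6, 47.4 and 22.8 CPM in KO-labelled and 16.7, 31.0 and 40.5 CPM in Wt DN3 libraries, below its DN4 values in every mouse. Its log2 fold change was 1.63 ± 0.323 in Wt (adjusted p = 0.00814, edgeR) and 1.202 ± 0.359 in KO-labelled mice (adjusted p = 0.0528, and 1.65e-05 with the mouse as a block). *Oas3*, an oligoadenylate synthetase that activates RNase L, was 27.4, 28.6 and 8.04 against 13.8, 13.5 and 28.6 CPM in DN3 and 41.4, 67.9 and 27.2 against 40.4, 46.1, 41.6 and 85.8 CPM in DN4. It rose by 1.48 ± 0.371 on the log2 scale in Wt mice (adjusted p = 0.0221), while the KO-labelled value was 1.07 ± 0.484 (adjusted p = 0.166, and 0.0024 with the block). *Ifit1* was 27.5, 31.5 and 6.47 against 7.02, 14.5 and 27.6 CPM in DN3 and 38.2, 48.9 and 14.3 against 31.5, 41.4, 39.9 and 43.7 CPM in DN4, with log2 fold changes of 1.19 ± 0.368 in Wt (adjusted p = 0.0495) and 0.61 ± 0.587 in KO-labelled mice (adjusted p = 0.507, and 0.0090 with the block).

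The DN4 level of *Tmem173* also moved with the B-cell markers. From the values above, it had log2 fold changes of 1.06 ± 0.324 in Wt (adjusted p = 0.0479, edgeR) and 0.51 ± 0.239 in KO-labelled mice (adjusted p = 0.181, and 0.0425 with the block). Set against only WT40 and WT46, the DN4 Wt libraries with the lowest B-cell marker sums, the Wt value was 0.64 (adjusted p = 0.254). These are also the mice with 0 to 2 *Xist* counts, so that B-cell level and sex cannot be told apart here. Of the 8 Wt calls, 5 passed in that fit, *Zbp1*, *Samhd1*, *Dtx3l*, *Ifit3* and *Ifi27l2a*, and the median of the 38 was 0.37. *Ifit1* and *Oas3* did not pass with these fewer libraries, at log2 fold changes of 1.23 ± 0.452 and 1.19 ± 0.338. Across the 7 DN4 libraries all 38 members had a positive Pearson correlation with the B-cell marker sum on the log2 scale, with a median of 0.80, where 51.6% of 13001 genes were positive. Without WT48 and KO51 the median fell to 0.59, from 0.994 in *Samhd1* to -0.03 in *Ifit1*, and 37 of 38 were positive (all genes 50.7%), so that for several members the relation rested on those libraries. For *Tmem173* r was 0.925 (0.850 without them), for *Ifit3* 0.699 (0.253) and for *Bst2* 0.154 (0.103). How much of the stage change comes from B cells was not tested.

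**Figure D4:**
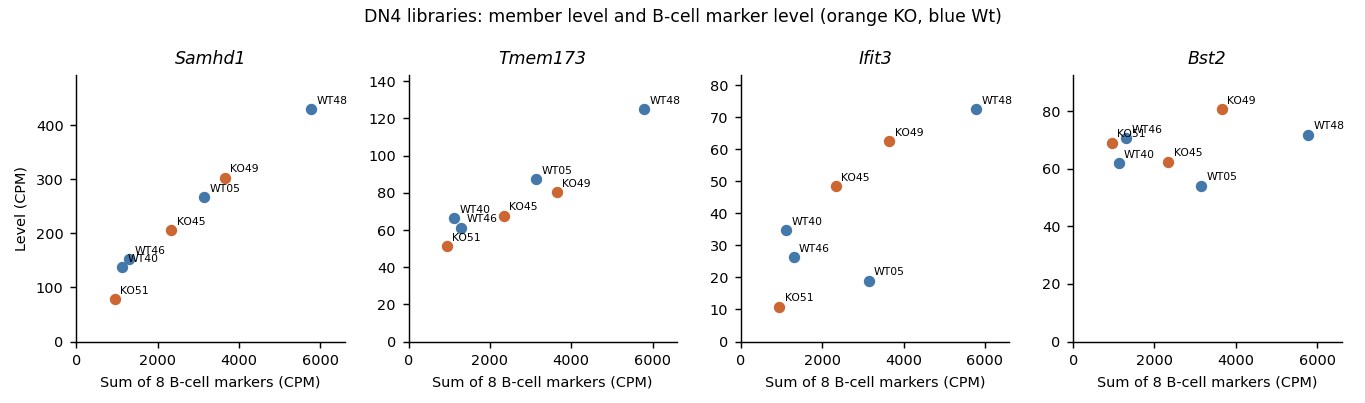
Level in CPM (y axis) of *Samhd1*, *Tmem173*, *Ifit3* and *Bst2* against the summed CPM of 8 B-cell markers (x axis) in the 7 DN4 libraries, orange for KO-labelled and blue for Wt. *Samhd1* follows the B-cell sum in order, while *Ifit3* in WT05 lies low at 19.0 CPM beside a B-cell sum of 3140 CPM.

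A few members went the other way. *Bst2* was 119, 125 and 110.0 CPM in KO-labelled and 60.9, 124 and 126 CPM in Wt DN3 libraries, and fell by 0.76 on the log2 scale in KO-labelled mice (standard error 0.129, adjusted p = 0.00609, edgeR). The Wt value was -0.71 ± 0.239 (adjusted p = 0.0648, and 0.0433 with the block), with the DN3 library of WT05 lower than the others. *Dtx3l*, a ubiquitin ligase that works with PARP9, was 249, 211 and 152 against 172, 178 and 201 CPM in DN3 and 146, 148 and 98.0 against 146, 129, 123 and 163 CPM in DN4. It fell by 0.42 in Wt mice (standard error 0.128, adjusted p = 0.0481, and 0.125 with the block), and the KO-labelled value was -0.67 ± 0.225 (adjusted p = 0.0762, and 0.00049 with the block). *Ifih1* had values of -0.62 ± 0.233 in Wt (adjusted p = 0.0898, and 0.0497 with the block) and -0.71 ± 0.285 in KO-labelled mice (adjusted p = 0.125, and 0.00353 with the block). *Isg15*, at 35.6, 51.6 and 18.3 against 7.90, 26.0 and 39.8 CPM in DN3, did not pass in either fit, with 0.32 ± 0.430 in Wt and -0.10 ± 0.409 in KO-labelled mice.

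**Figure D5:**
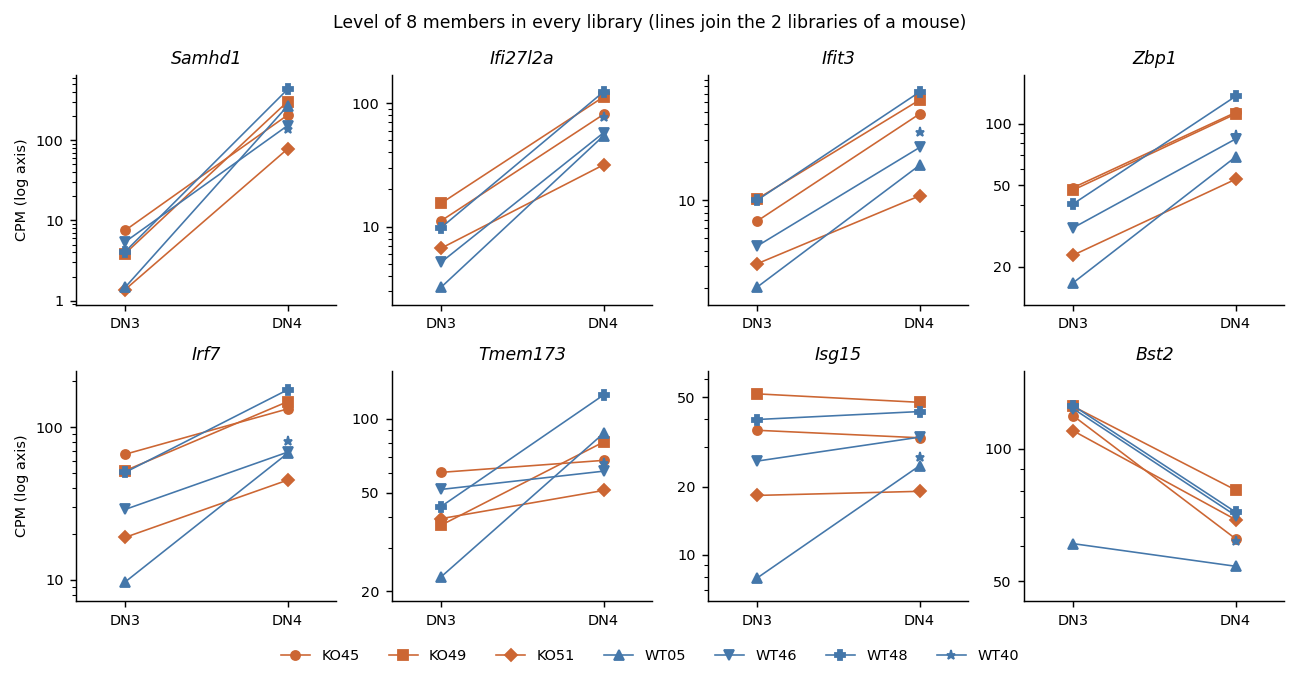
CPM on a log axis (y axis) of 8 members in DN3 and DN4 (x axis), with lines joining the libraries of a mouse, orange for KO-labelled and blue for Wt. *Samhd1*, *Ifi27l2a* and *Ifit3* rise in every mouse, *Bst2* falls in every mouse, and *Isg15* rises mainly in WT05.

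Whether the change from DN3 to DN4 differed between the genotypes was tested as an interaction over all 13 libraries. Of the 38 members 0 passed (0.0% of 13361 genes) and 0 had an unadjusted p under 0.05. Of their values 31 of 38 were negative with a median of -0.26, where the median of all genes was -0.0175 and 47.9% were positive. The smallest p-values were those of *Ifi27l2a*, *Tmem173* and *Mavs*, with values of -0.83 ± 0.675, -0.54 ± 0.437 and -0.23 ± 0.225 and an adjusted p of 1 each in edgeR. With the mouse as a block 0 passed again (smallest adjusted p = 0.901), while 7 members, all negative, had an unadjusted p under 0.05, as did 5.14% of all genes. *Ifi27l2a* was lowest at -0.99 ± 0.238. Within mice its log2 change was 2.81, 2.83 and 2.17 against 3.89, 3.37 and 3.59, KO-labelled mice first.

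The signed log2 change was lower in every KO-labelled mouse than in any Wt mouse for 8 members (21.1%, all genes 5.87%). These were *Zbp1*, *Oasl2*, *Mx2*, *Cmpk2*, *Isg15*, *Usp18*, *Xaf1* and *Ifi27l2a*, and 0 showed the reverse (all genes 5.08%). For *Oasl2* this was a fall, at -1.10, -0.58 and -0.43 in KO-labelled mice against 0.10, -0.27 and 0.11 in Wt mice. WT05 had the highest signed change of the 6 mice in 24 of 38 members (29.6% of all genes). These include *Bst2* and *Dtx3l*, which fell least in WT05. The median change of 1.198 in WT05 exceeded 0.93 in WT48, 0.58 in KO49, 0.31 in WT46 and in KO51 and 0.17 in KO45. Without the DN3 library of WT05, the median of the interaction was -0.05. Without the mouse WT05, the signed change was lower in all KO-labelled mice for 9 members (all genes 9.61%).

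Genes around the members, from a list of 83 that held none of them, gave the same answer for genotype. In both stages 0 were called higher or lower by edgeR, out of 70 tested in DN4 and 67 in DN3. Of the interferon genes listed, *Ifnb1*, *Ifna1*, *Ifna2*, *Ifna4*, *Ifnk*, *Ifne*, *Ifnl2* and *Ifnl3* were at 0 counts in every library, where 3 counts, the limit that a count of 0 allows, stand for 0.207 to 0.878 CPM. *Ifng* had 0 to 9 counts. *Cgas* was 11.2 to 21.2 CPM in all 13 libraries. *Trex1*, the cytosolic DNA exonuclease, was listed at 0 throughout, and its annotated position on chromosome 9 (109057933 to 109059734) lies inside *Atrip* on the same strand. Whether that overlap bears on the 0 was not tested. *Socs1*, an interferon-induced inhibitor of JAK kinases, had the smallest unadjusted p in DN4 (log2 fold change 0.63 ± 0.243, adjusted p = 0.883, edgeR).

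Between the stages, 24 of 69 genes of this list changed in Wt mice, 23 higher and 1 lower, and 15 of 70 in KO-labelled mice, 14 higher and 1 lower, where 22.9% and 18.6% of all genes were called. With the mouse as a block the counts were 24 (23 higher, 1 lower) and 38 (30 higher, 8 lower), where 18.7% and 35.8% of all genes were called. The genes called higher in each fit include *Enpp1*, *Irf5* and *Tlr9*, which were too low in DN3 to be tested there. They entered the stage fits through DN4, and *Enpp1* was 0.577 to 1.86 CPM in DN3 and 4.98 to 23.9 CPM in DN4. The receptor and signal chain rose in Wt mice at *Ifnar1* (0.63 ± 0.145 on the log2 scale, adjusted p = 0.0159, edgeR), *Jak1* (0.86 ± 0.139) and *Jak2* (1.07 ± 0.139), and in KO-labelled mice at *Jak2* (0.74 ± 0.165), joined by *Ifnar1* and *Jak1* with the block. *Ikbke*, a kinase that acts beside TBK1 below STING, rose in both (1.24 ± 0.120 and 1.004 ± 0.186). Of 7 genes of endosomal sensing, *Irf5*, *Tlr7* and *Tlr9* were called higher in both genotypes, of which *Irf5* and *Tlr9* were too low in DN3 to be tested there and entered the stage fits through DN4. *Tlr9*, the receptor for CpG DNA, was 0 to 0.585 CPM in DN3 and ranged in DN4 from 1.49 CPM in KO51 to 49.8 CPM in WT48, the libraries with the lowest and the highest B-cell marker sum. Of 12 genes of mtDNA release and mitochondrial RNA control, *Polg*, the mtDNA polymerase, rose in both genotypes, by 1.05 ± 0.109 in the Wt and 1.18 ± 0.109 in the KO-labelled group. With the block *Adar* (0.39 ± 0.0881) and *Vdac1* (-0.35 ± 0.0878) passed in the KO-labelled group as well. Without the block, *Ifitm2* was the 1 gene of the list that fell, with log2 fold changes of -3.13 ± 0.336 in Wt and -3.57 ± 0.270 in KO-labelled mice.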

How the data were processed

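RNA of DN3 and DN4 thymocytes was sequenced by the authors from stranded mRNA libraries on an Illumina HiSeq instrument. Per the labels and the paper's methods, reads were trimmed with Cutadapt, mapped with STAR to mm10 and assigned to genes with featureCounts, and the deposited values are whole-number counts for 47937 genes, not normalized. The annotation release and the strand setting of the counting are not given in the sources used here. Each column was joined to its mouse, stage and genotype by its label (0 unused columns). Names and positions are from GENCODE M21 on GRCm38, where 47310 identifiers were found without their version.

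Fits took only the groups compared and used edgeR 4.0.16 in R 4.3.3 (filterByExpr with a minimum count of 10, TMM, quasi-likelihood test, Benjamini-Hochberg adjustment over all genes tested, threshold 0.05). Errors after ± are standard errors of the fit. The interaction used all 13 libraries. DESeq2 1.42.0 and limma 3.58.1 (voom), other scalings and filters, and each library left out were alternatives. Fits with the B-cell marker level as a covariate, or with only the DN4 libraries lowest in it, were added after seeing the data. The members and lists were chosen with earlier results of these data known. With library values in full are given the members past 0.05 in any comparison fitted without the block, the 3 with the smallest p in each genotype comparison and the interaction, and *Ddx58*, *Ifih1*, *Dhx58*, *Zbp1*, *Tmem173*, *Mavs*, *Irf1*, *Irf7*, *Irf9*, *Stat2* and *Isg15*; *Mx2*, *Cmpk2*, *Usp18*, *Xaf1*, *Oasl2* and other members named in counts were named after their values were seen. Code was tested on simulated counts.

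The mouse number pairs the libraries, since both stages came from the same animal. Over 13361 genes, deviations from the group means in DN3 and in DN4 correlated by 0.495, 0.226 and 0.366 in KO45, KO49 and KO51 and by 0.164, 0.123 and 0.185 in WT05, WT46 and WT48. Mice of a group are separate animals. Whether 50-base stretches of a member's transcripts occur in another gene was searched in the GENCODE transcripts. At the median depth of 10023044 counts, 1 count stands for about 0.1 CPM, so that precision is limited by the spread between mice for all but the lowest members.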

Additional observations from a re-analysis of the deposited data

Results flagged for a closer look

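In the 4 Wt DN4 libraries, the highest library of a member can be so far above the others that its gap to the next, over the whole range, exceeds Dixon's 95% critical value for 4 samples. This was the case for 13 of the 38 members, and in each of the 13 the library was WT48. Among sensors and adaptors WT48 had 173.9 CPM of *Ddx58*, 31.44 of *Ifih1*, 59.44 of *Dhx58*, 90.27 of *Eif2ak2*, 54.47 of *Oas1a*, 85.81 of *Oas3*, 53.86 of *Oasl1* and 59.44 CPM of *Oasl2*. *Oas1a* shares 57.6% of its 50-base stretches with *Oas1g*, so that its value is uncertain. The other 5 were *Irf7* at 175.3, *Mx1* at 76.99, *Cmpk2* at 39.66, *Usp18* at 82.26 and *Ifi44* at 22.31 CPM. Chance flags about 1 in 20 groups, and the 38 members are not independent, since they moved together between the mice. WT48 also had the highest B-cell marker sum of the DN4 libraries, 5784 CPM. Its DN3 library was the highest Wt library for 32 of 38 members. The B-cell marker sum of that DN3 library was 353 CPM, of which 313 CPM were *Ighm*. The part of B cells in these values was not tested. Without the DN4 library of WT48 the median genotype difference in DN4 was 0.29 on the log2 scale, with 0 members called.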

How the results depend on the processing

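Under all alternatives run, 0 members were called between the genotypes in either stage or in the interaction. Named members kept their direction and side of the threshold in 351 of 414 comparisons with an alternative. Every change of side fell in a stage comparison, since the others had 0 calls throughout. The median genotype difference changed sign in DN4, from -0.24 without KO49 to 0.34 without KO51, and with a library left out ran from 0.06 to 0.66 in DN3 and from -0.64 to 0.01 in the interaction. The cause of the changes that follow was not tested, beyond the smaller number of libraries where some were left out. In Wt mice the 8 members called between the stages became 5 with library totals, 16 with DESeq2's Wald test, 4 without WT40 and WT46, 5 with WT40 and WT46 as the only DN4 libraries and 19 with the mouse as replicate block, and 3 to 9 with a library left out (3 without the DN3 library of WT46, 5 without the DN4 library of WT05); the median ran from 0.37 to 1.004. In KO-labelled mice the 4 became 12 without a filter, 7 with DESeq2's Wald test, 22 with the block and 2 with KO51 as the only DN4 library, where the median was -0.40 and *Ifit1* turned to -0.60 (adjusted p = 0.764 in edgeR; that lone library is assumed to vary like the others, and is set against the DN3 libraries of all 3 mice; within KO51 the median change was 0.31 and that of *Ifit1* 1.09). With a library left out it was 3 to 12 (12 without the DN4 library of KO51), with medians of 0.10 to 0.64. The genotypes are in different mice and have no such block, and the block changed no interaction call. Over all genes, the 7 calls in DN4 became 51 with DESeq2, 11 without a filter, 25 with the B-cell covariate, 1 without WT40 and WT46 and 0 to 8 with a library left out; the 0 in DN3 became 3 with DESeq2 and the 0 of the interaction 2; the 2903 between Wt stages fell to 1782 with library totals and 1723 without WT40 and WT46; and the 2338 between KO-labelled stages became 4499 with the block and 714 with KO51 as the only DN4 library. Levels under about 10 CPM in DN3, as of *Samhd1* and *Ifit3*, rest on few counts.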
